A study of Mus musculus with 4 samples.

Results

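DNA replication genes were followed in mouse embryonic fibroblasts (MEFs) grown sparse or crowded, in cultures labelled wild type (WT) or Lats2 knockout (KO). The group holds 44 genes whose products license origins, open and copy DNA, supply deoxynucleotides, or restore chromatin behind the fork. A member is a gene whose listed symbol is carried by a non-control probe in all 4 scanner files, and each gene was read from its brightest probe. Probes were found for 43 of the 44 listed genes (58 of 40998 probes, and 43 of 27656 gene names). No probe carried the symbol Gins2, a subunit of the GINS complex.

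All MEFs were labelled as C57BL/6J, with genotype Lats2-/- for the KO cultures and wild type for the others, and were grown in DMEM with 10% inactivated serum. Low-density cells were taken after 48 h while subconfluent, and high-density cells after 3 to 5 days. The age and number of the embryos behind a culture and the deleted part of Lats2 are not given in the sources used here. RNA from both densities was co-hybridised on Agilent 2-colour arrays, 2 arrays for each genotype. On array 1 of each genotype high density carried Cy5 and low density Cy3, and on array 2 the dyes were exchanged. A dye-swap pair was counted as 1 replicate, because the labels do not say that its RNA came from separate cultures. The spread between paired arrays is therefore technical, and no test was possible within a genotype or between genotypes.

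The share of features that the scanner software marked as well above background was 52.8% to 67.7% per channel, and none was saturated. All 43 replication genes were well above background in all 8 channels. Both WT arrays shared 1 slide and 1 scan day, whereas the KO arrays lay on 2 other slides with 2 scan days, so slide and genotype cannot be told apart. Lats2 itself did not follow the labels at most of its probes. Its signal was higher on the arrays labelled KO at 3 of 4 probes (low-density log2 differences of 1.38, 1.18 and 1.39), and lower at the other probe (-0.64 at low density and -1.27 at high density). These probes check the labels only where they lie inside the deletion, and WT and KO below therefore refer to the labels. The study also examined Lats2 protein in its KO MEFs by western blotting, which was not analysed here. Of 10 fibroblast markers, 9 or 10 were well above background in each culture. The macrophage markers Ptprc, Emr1, Itgam and Tyrobp and the endothelial markers Pecam1, Cdh5, Tek and Tie1 were not well above background in any culture. The macrophage and blood cell list had 2 of 8 genes well above background in both WT cultures and 3 of 8 in both KO cultures. Its lysozyme gene Lyzs was at log2 signals of 6.38 (not well above background) and 7.38 in WT (low and high density) and 10.28 and 12.13 in KO, and the part of such cells in the results was not tested. Detected endothelial markers numbered 1 or 2 of 6, epithelial 1 or 2 of 6, neural 1 of 4, and muscle and cartilage 2 or 3 of 6. Some detected markers differed between the cultures by as much as the replication genes or more. The endothelial marker Flt1 was at log2 signals of 11.06 and 9.87 in WT (low and high density) and 12.98 and 10.79 in KO. The cartilage collagen gene Col2a1 was at 12.79 and 12.31 in WT and 9.57 and 12.44 in KO, where only the KO low-density culture was low. The fibroblast marker Pdgfra was at 6.596 and 9.64 in WT and 11.04 and 12.73 in KO. Other fibroblast markers ran the other way, such as Fn1, at 14.99 and 13.39 in WT and 13.68 and 14.71 in KO. S100a4 was at 17.44 and 16.65 in WT and 17.84 and 15.38 in KO. Of 9 fibroblast markers compared at low density, 5 were higher in KO and 4 lower. The part of such differences in cell make-up or state in the results was not tested.

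Origins are licensed for replication in G1, when the origin recognition complex, Cdc6 and Cdt1 load the ring-shaped Mcm helicase onto DNA. In S phase Cdc45 and GINS activate the helicase, primase and the DNA polymerases copy both strands behind the sliding clamp Pcna, and ribonucleotide reductase and thymidylate enzymes supply the building blocks. Many of these genes are known targets of E2F factors, which are held in check by pocket proteins when fibroblasts leave the cell cycle at confluence. Lats2 is a kinase of the Hippo pathway, which is known for restraining growth in crowded cells.

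Since E2F control is the textbook feature of this group, its promoter windows were searched for E2F-like letters. RefSeq windows (GRCm38.p6, 250 bases before to 50 after the annotated start) existed for 37 of the 44 genes, 3 of them under newer names (Orc1 for Orc1l, Orc6 for Orc6l and Cdc45 for Cdc45l). The search used 4 E2F forms on both strands, namely TTTCCCGC, TTTGGCGC, TTTCGCGC and TTTGCCGC, and matches of different forms may overlap. At least 1 form was present in 14 of these 37 genes (37.8%), against 2.6% of 27025 genes with a window. Counted by window, the share was 31.1% of 45 member windows, 2.26% of all 32851 windows and 2.85% of the 21263 windows of protein-coding genes. A match was found for Mcm3, Mcm5, Mcm6, Mcm7, Cdc6, Cdt1, Orc1l, Pola1, Pold1, Pole2, Rfc3, Lig1, Dnmt1 and Uhrf1. Origin licensing accounted for 7 of the 14, and no form was found in the windows of the 5 nucleotide synthesis genes. Member windows were also richer in G and C (median 58.3%, against 52.7% over all windows and 56.3% over protein-coding ones). CCAAT was present in 60% of member windows (37.4% of all), the GC box GGGCGG in 68.9% (35.7% of all), and the CHR letters TTTGAA or TTCGAA in 15.6% (19.2% of all). These shares describe letters in a window and were not tested, and they show no binding.

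The stretches around the E2F-like letters of the 7 licensing genes and of Rfc3 are shown here, because the licensing genes make up 7 of the 14 genes with a match and include Mcm7 and Cdt1, whose density effects in KO lay furthest apart within that role. Each stretch is written 5′ to 3′ on the strand of its gene, and capitals mark the E2F forms on either strand, including overlapping ones.
Mcm3 (chr1:20820263-20820313, minus strand): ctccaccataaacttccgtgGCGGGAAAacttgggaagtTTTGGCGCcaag
Mcm5 (chr8:75109336-75109387, plus strand): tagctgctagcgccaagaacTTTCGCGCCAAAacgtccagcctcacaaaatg
Mcm6 (chr1:128359725-128359835, minus strand): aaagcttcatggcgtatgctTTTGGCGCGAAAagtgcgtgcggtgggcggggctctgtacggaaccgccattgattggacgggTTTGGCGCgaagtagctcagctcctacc
Mcm7 (chr5:138171840-138172068, minus strand): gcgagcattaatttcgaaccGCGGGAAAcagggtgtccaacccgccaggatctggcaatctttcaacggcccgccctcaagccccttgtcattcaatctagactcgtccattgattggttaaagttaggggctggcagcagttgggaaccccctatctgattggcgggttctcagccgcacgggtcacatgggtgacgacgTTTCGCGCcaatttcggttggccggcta
Cdc6 (chr11:98907993-98908040, plus strand): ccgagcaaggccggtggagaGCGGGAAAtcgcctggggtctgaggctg
Cdt1 (chr8:122568027-122568064, plus strand): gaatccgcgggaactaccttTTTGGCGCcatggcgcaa
Orc1l (chr4:108579407-108579454, plus strand): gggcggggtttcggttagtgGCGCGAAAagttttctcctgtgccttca
Rfc3 (chr5:151651181-151651238, minus strand): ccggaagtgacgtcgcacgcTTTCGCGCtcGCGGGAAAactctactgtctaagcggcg
Mcm5 and Mcm6 each carried forms that overlap in opposite orientation, and Rfc3 carried a pair separated by 2 bases. The 14 genes with a match had a median density effect of -1.29 in WT and -0.84 in KO, and the 23 genes with a window but no match had medians of -1.41 and -0.52 (log2 of high over low density).

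The first comparison asked how crowding changed the replication genes in WT MEFs. Each density effect is the log2 ratio of high to low density after background correction and loess, averaged over both arrays. All 43 genes were lower at high density on both arrays. The median density effect was -1.41, and single genes ranged from -1.96 (Tk1) to -0.42 (Rpa3). The median over the 14874 genes tested was 0.06. A gene was called when its mean effect was 2-fold or more and its arrays did not disagree in sign. By this rule 37 of 43 replication genes were lower at high density, against 6.09% of all genes tested. None was higher, against 9.41% of all genes. The 6 genes that were not called, Orc6l, Pola2, Pold2, Rfc1, Rfc2 and Rpa3, had effects between -0.995 and -0.42. In these bulk cultures, fewer replicating cells and less RNA in each cell cannot be told apart.

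In KO MEFs the same genes were mostly lower at high density too, but by less. The median was -0.61, against 0.06 over the 15434 genes tested, and 42 of 43 genes lay below 0 (39 with the same sign on both arrays). Here 7 genes were called lower (3.87% of all genes tested), namely Mcm2, Mcm3, Orc1l, Cdc6, Cdt1, Rrm2 and Chaf1b. The count was 16 with median centring in place of loess (6.93% of all genes), and 11 with the software's processed signals (7.92%) or the series matrix (7.9%). None was called higher (7.15% of all genes). Without KO array 1 the count was 4 (4.41% of all genes), and without KO array 2 it was 10 (3.42%). Of the 7 called genes, 5 belong to origin licensing. The medians of the 43 genes were -1.38 on both WT arrays and -0.63 and -0.58 on the KO arrays, so the arrays of a genotype were closer to each other than to those of the other genotype.

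**Figure D1:**
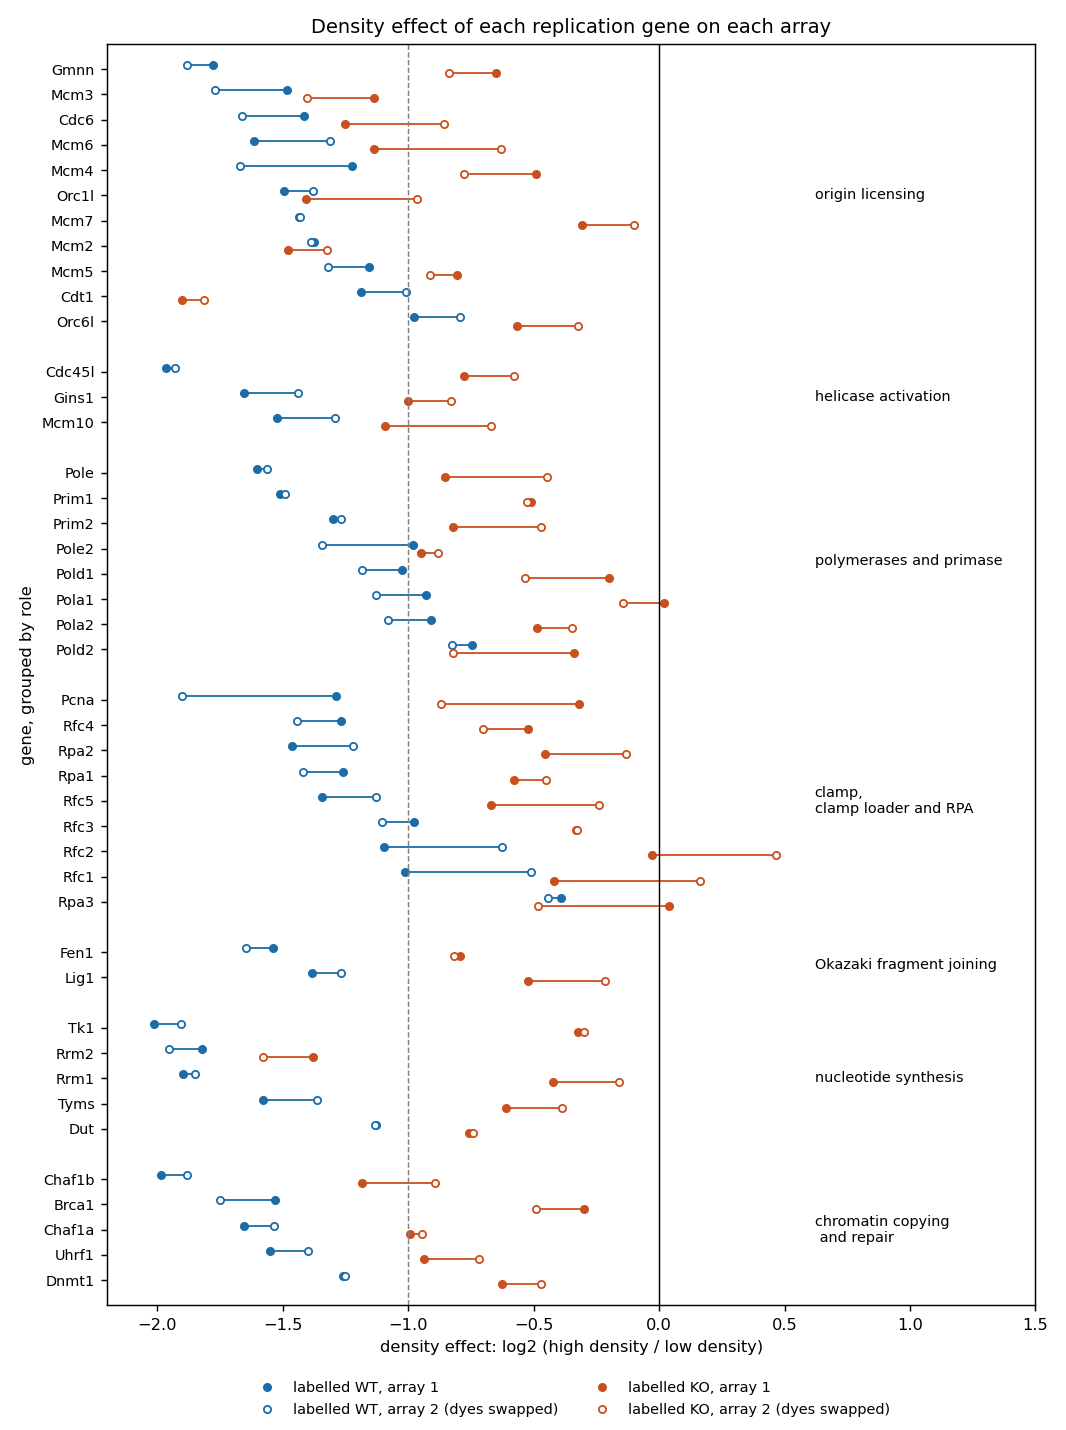
Log2 ratio of high to low density (x axis) for each of the 43 replication genes (y axis), grouped by role and ordered within a role by the WT effect. Filled points are array 1 and open points array 2 of the dye swap, lines join the arrays of 1 genotype, and the dashed line marks a 2-fold decrease. Most WT points lie left of the dashed line and most KO points right of it. For Mcm2, Mcm3, Cdt1 and Rrm2 both KO points lie left of the line.

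The effect in KO minus the effect in WT was above 0 in 41 of 43 genes, with a median of 0.71 (0.017 over the 14172 genes tested in both). In 40 of these genes the decrease with density was smaller in KO than in WT, and Rfc2 showed no decrease in KO. The difference was called higher by the same rule, applied to the dye orientations, for 9 genes (4.55% of all genes tested). They were Tk1, Rrm1, Cdc45l, Brca1, Mcm7, Gmnn, Rfc2, Rpa2 and Pcna. None was called lower (4.97% of all genes). Expressed per gene, the KO effect was at the median 43.8% of the WT effect, and under 50% in 23 of 43 genes. The exceptions were Mcm2, with nearly equal effects, and Cdt1, with a larger effect in KO.

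**Figure D2:**
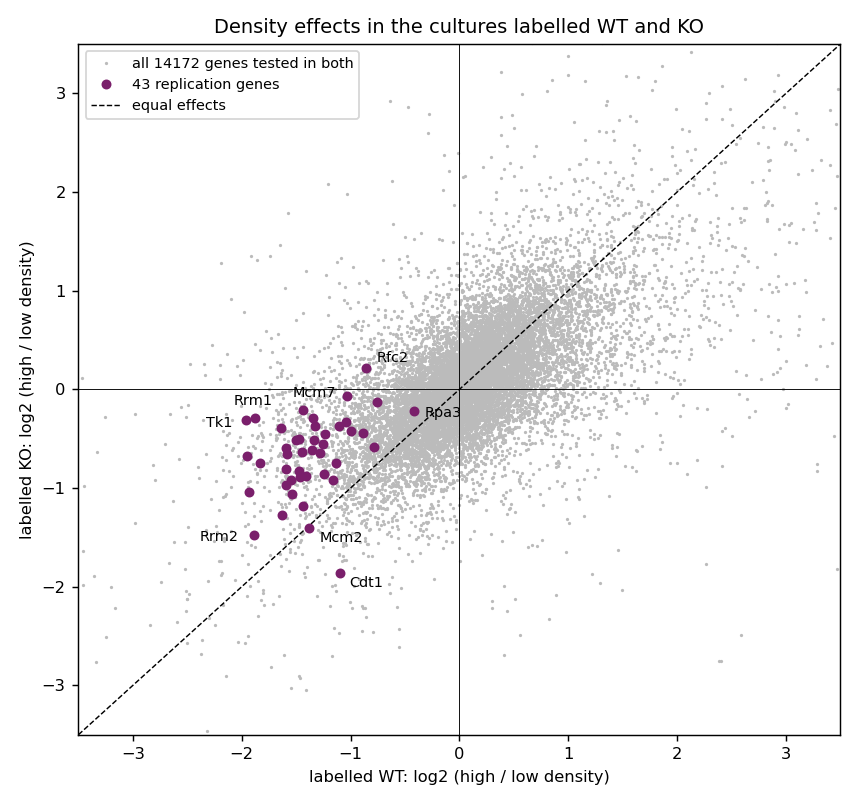
Log2 density effect in WT (x axis) against KO (y axis) for 14172 genes tested in both (grey, 74 of them outside the axes) and for the 43 replication genes (purple). The dashed line marks equal effects. All but Cdt1 and Mcm2 of the replication genes lie above this line.

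Origin licensing genes had the widest range of KO minus WT differences among the 7 roles, from -0.76 to 1.23. In WT 10 of these 11 genes were called lower (median -1.44), and in KO 5 of 11 (median -0.88). Counts in this and the other roles stand beside 6.09% of all genes called lower in WT and 3.87% in KO. At that KO share, a small role with no called gene is not set apart from all genes. Mcm2, a helicase subunit, was at log2 signals of 12.55 and 12.48 in WT at low density and 11.17 and 11.09 at high density (array 1 and array 2). In KO it was at 11.39 and 11.37 at low density and 9.91 and 10.05 at high density. Its levels thus shifted down by a similar step in both genotypes, with density effects of -1.38 in WT and -1.40 in KO. Mcm7, another subunit of the same ring, was at 14.35 and 14.28 in WT at low density and 12.91 and 12.84 at high density. In KO it was at 12.87 and 12.93 at low density and 12.57 and 12.83 at high density. Only the WT low-density culture stood apart for Mcm7, and its density effects were -1.43 in WT and -0.20 in KO, a difference of 1.23 (1.13 and 1.33 in the dye orientations).

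Cdt1, which loads the helicase together with Cdc6, behaved in the opposite way. It was at 13.01 and 12.89 in WT at low density and 11.83 and 11.88 at high density. In KO it was at 12.33 and 12.23 at low density and 10.42 and 10.42 at high density. The KO high-density culture was thus the lowest, with density effects of -1.10 in WT and -1.86 in KO (-1.90 and -1.81 on the KO arrays). Its difference of -0.76 was below 0 in each orientation (-0.72 and -0.80) but did not reach 2-fold. Gmnn, which encodes geminin, the inhibitor of Cdt1, fell by 1.83 in WT on the log2 scale (-1.78 and -1.88 on the arrays), and its effect in KO was -0.74 (-0.65 and -0.84). Its difference was 1.09 (1.13 and 1.04). The density effects of Cdt1 and its inhibitor therefore differed between genotypes in opposite directions, with this difference called for Gmnn and not for Cdt1. Compared at the same density, both were lower in KO at low density (-0.67 for Cdt1 and -0.89 for Gmnn, neither called). At high density the KO to WT differences were -1.43 for Cdt1, which was called, and 0.195 for Gmnn.

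The other licensing genes lay between these. Mcm3 had effects of -1.63 in WT and -1.27 in KO, and its second probe differed from these by 0.08 and 0.15. The probes were further apart between genotypes, with KO to WT differences of -0.60 and -1.17 at low density (brightest and second probe) and of -0.24 and -0.74 at high density, so that the second probe passed 2-fold at low density and the brightest did not. Mcm4, Mcm5 and Mcm6 had effects of -1.45, -1.24 and -1.46 in WT, and of -0.63, -0.86 and -0.88 in KO. Orc1l, the large subunit of the origin recognition complex, had effects of -1.44 and -1.18 in WT and KO, and Cdc6 of -1.54 and -1.06. On the KO arrays the effects were -1.41 and -0.96 for Orc1l and -1.25 and -0.86 for Cdc6. At low density Cdc6 was called lower in KO than in WT at its brightest probe (-1.20), but its second probe gave -0.92. The Orc1l effect in KO was -2.10 with the software's processed signals, at log2 signals of 6.42 and 6.89 at high density. Orc6l, the small subunit, had effects of -0.88 in WT (-0.98 and -0.79) and -0.45 in KO (-0.57 and -0.32) and was called in neither.

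Helicase activation genes were all called lower in WT (3 of 3, against 6.09% of all genes) and none in KO (3.87% of all genes). Cdc45l, the partner that switches the Mcm ring on, was at 9.68 and 9.85 in WT at low density and 7.72 and 7.93 at high density, and in KO at 7.96 and 8.11 at low density and 7.19 and 7.54 at high density. Both KO low-density values lay well below those of sparse WT cells, and near those of crowded WT cells. The density effects were -1.95 in WT and -0.68 in KO, a difference of 1.27 (1.19 and 1.35). Mcm10, a scaffold for helicase activation, and Gins1, a GINS subunit, had effects of -1.41 and -1.55 in WT and of -0.88 and -0.92 in KO. On the arrays Mcm10 was at -1.52 and -1.29 in WT and -1.09 and -0.67 in KO. Gins1 was at -1.65 and -1.44 in WT and -1.002 and -0.83 in KO, where its second probe had a mean of -1.002 and passed 2-fold.

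Among polymerase and primase genes 6 of 8 were called lower in WT (median -1.13) and none in KO (median -0.55). Pole, the catalytic subunit of the leading-strand polymerase, had effects of -1.58 in WT and -0.65 in KO. These were -1.60 and -1.56 on the WT arrays and -0.85 and -0.45 on the KO arrays. Its second probe was well above background at high density on 0 of 2 WT arrays and 1 of 2 KO arrays. This probe gave density effects of -0.63 in WT and -0.43 in KO, with dim high-density signals. At low density it was well above background on 2 of 2 arrays of each genotype. There its KO to WT difference was -0.09, against -1.16 at the brightest probe, so the low-density call of Pole rested on 1 probe. Prim1, the catalytic primase subunit, had effects of -1.50 in WT (-1.51 and -1.49 on the arrays) and -0.52 in KO (-0.51 and -0.53). Pola1, the catalytic subunit of polymerase alpha, had the smallest of these KO effects, at -0.06 (0.02 and -0.14), against -1.03 in WT. Pold2, a subunit of polymerase delta, had the weakest WT effect of these genes, at -0.78 (-0.75 and -0.82), and -0.58 in KO (-0.34 and -0.82). Pola2, Pold1, Prim2 and Pole2 had WT effects between -1.28 and -0.995. Pole2, a subunit of polymerase epsilon, had the largest KO effect of this role, at -0.92 (-0.95 and -0.88).

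The clamp, clamp loader and RPA genes were called lower in 6 of 9 cases in WT (median -1.24) and in none in KO (median -0.33). Pcna, the sliding clamp, was at 14.84 and 15.02 in WT at low density and 13.55 and 13.12 at high density, and in KO at 13.50 and 13.93 at low density and 13.18 and 13.06 at high density. The low-density WT values were again the highest. The high-density WT values overlapped those of each KO culture, while both KO values were lower at high than at low density. Its density effect was -1.60 in WT and -0.60 in KO, with arrays as far apart as -1.29 and -1.90 in WT, and a difference of 1.001 (0.97 and 1.03). The clamp loader gene Rfc2 was the only member above 0 in KO, at 0.22 (-0.03 and 0.46), against -0.86 in WT, and its difference of 1.08 was similar in both orientations (1.07 and 1.09). Its second probe gave -0.84 in WT and 0.02 in KO, a difference of 0.86, so this call rested on 1 probe. Rfc1 had effects of -0.76 in WT and -0.13 in KO, with opposite signs on the KO arrays (-0.42 and 0.16). Rpa2, a subunit of the single-strand binding complex, had effects of -1.34 and -0.29, and a difference of 1.05 (1.01 and 1.09). Rpa3, the smallest subunit, had effects of -0.42 in WT (-0.39 and -0.44) and -0.22 in KO (0.04 and -0.48). Rfc3, Rfc4, Rfc5 and Rpa1 had WT effects between -1.36 and -1.04 and KO effects between -0.61 and -0.33, the largest for Rfc4 (-0.52 and -0.70 on the KO arrays).

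Both genes of Okazaki fragment joining were called lower in WT and neither in KO. The flap nuclease gene Fen1 had effects of -1.59 in WT (-1.54 and -1.65 on the arrays) and -0.80 in KO (-0.79 and -0.82). The ligase gene Lig1 had effects of -1.32 in WT (-1.38 and -1.27) and -0.37 in KO (-0.52 and -0.22).

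Nucleotide synthesis genes had the largest WT decrease of the 7 roles (median -1.87, 5 of 5 called), while in KO 1 of 5 was called (median -0.50). Tk1, the thymidine salvage kinase, was at 13.68 and 13.51 in WT at low density and 11.67 and 11.61 at high density. In KO it was at 12.14 and 12.06 at low density and 11.81 and 11.76 at high density. The KO cultures at both densities lay close to crowded WT cells. Tk1 decreased 3.89-fold in WT and 1.24-fold in KO, and its difference of 1.65 (1.69 and 1.61) was the largest among the 43 genes. Its probe lies at chr11:117631881-117631940 in the array annotation (build mm8).

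The subunits of ribonucleotide reductase, which makes deoxynucleotides, had nearly equal density effects in WT but not in KO. Rrm1, the large subunit, was at 14.17 and 13.995 in WT at low density and 12.27 and 12.15 at high density. In KO it was at 13.37 and 13.26 at low density and 12.95 and 13.10 at high density, above the crowded WT cells on every array. Its effects were -1.87 in WT and -0.29 in KO, a difference of 1.58 (1.47 and 1.69). Rrm2, the small subunit, was at 11.76 and 11.86 in WT at low density and 9.94 and 9.91 at high density. In KO it was at 13.01 and 13.08 at low density and 11.64 and 11.50 at high density. Every KO value of Rrm2 was thus higher than the WT value at the same density, and crowding lowered it in both genotypes (-1.89 in WT and -1.48 in KO). Tyms, thymidylate synthase, had effects of -1.47 in WT and -0.50 in KO at its brightest probe and nearly the same at a second probe (-1.47 and -0.50). A further probe was well above background at high density on 0 of 2 WT arrays and 1 of 2 KO arrays. It gave density effects of -0.26 in WT and -0.23 in KO, with dim high-density signals. At low density it was well above background on 2 of 2 arrays of each genotype. There its KO to WT difference was -0.003, against -0.90 at the brightest probe. Dut, which removes dUTP, had effects of -1.13 in WT, on each array, and of -0.75 in KO (-0.76 and -0.74).

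**Figure D3:**
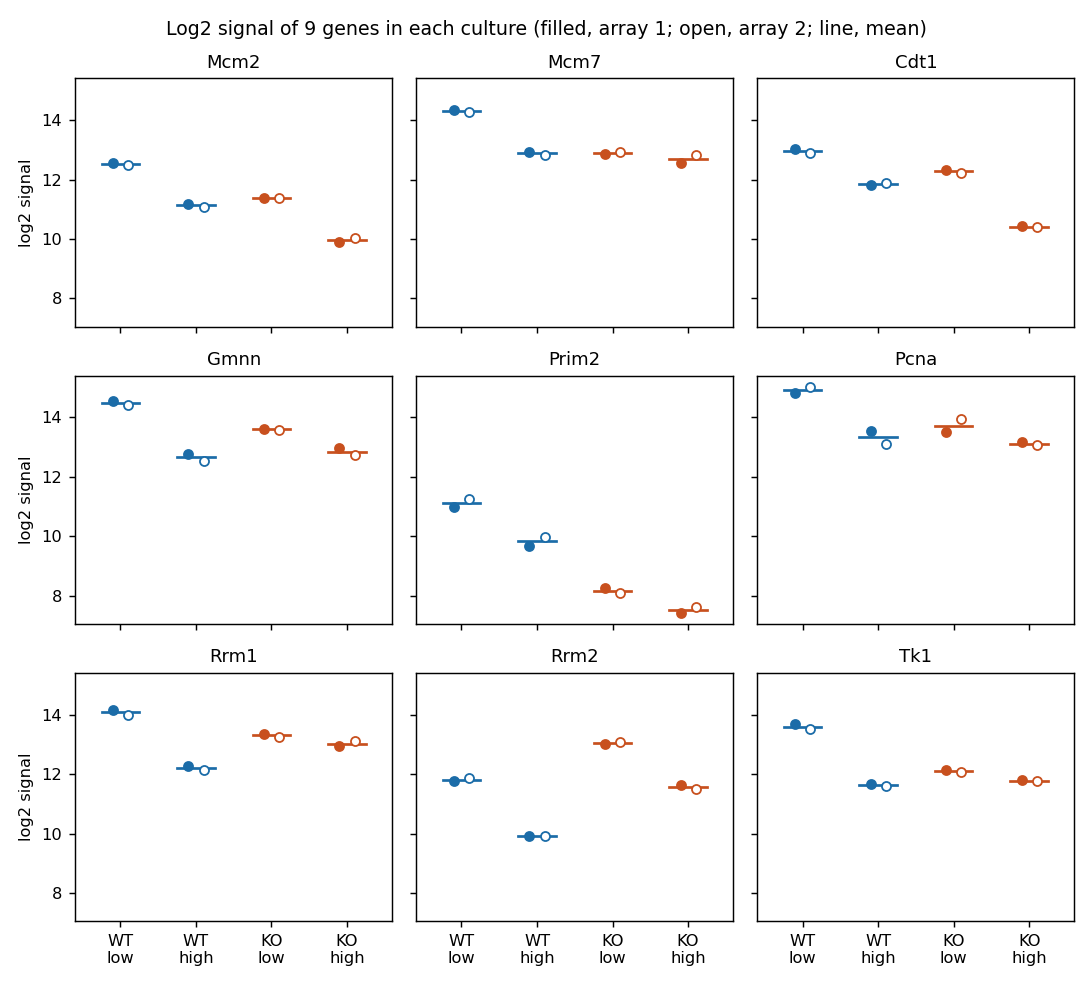
Normalised log2 signal (y axis) of 9 genes in the 4 cultures (x axis). Filled and open points are array 1 and array 2, and lines are their means. For Mcm7, Pcna and Tk1 the WT low-density culture is high and the other cultures are close to each other, whereas Mcm2, Cdt1 and Rrm2 are lower at high density in both genotypes.

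Chromatin copying and repair genes were all called lower in WT (5 of 5, median -1.60), and 1 of 5 in KO (median -0.83). Chaf1b, a subunit of the chromatin assembly factor that deposits histones behind the fork, had effects of -1.93 in WT and -1.04 in KO, with WT arrays at -1.98 and -1.88 and KO arrays at -1.19 and -0.89. Its partner Chaf1a had effects of -1.60 and -0.97. Uhrf1 and Dnmt1, which copy DNA methylation to the new strand, had effects of -1.48 and -1.25 in WT and -0.83 and -0.55 in KO. Dnmt1 was at -1.26 and -1.25 on the WT arrays and -0.63 and -0.47 on the KO arrays. Brca1, a repair gene that protects forks, had effects of -1.64 and -0.39 (difference 1.25, and 1.23 and 1.26 in the dye orientations). On the arrays its effects were -1.53 and -1.75 in WT and -0.30 and -0.49 in KO. Its second probe was well above background at high density on 1 of 2 arrays of each genotype. This probe gave density effects of -0.78 in WT and -0.18 in KO, and a difference of 0.60. At low density it was well above background on 2 of 2 arrays of each genotype. There its KO to WT difference was -0.795, against -1.61 at the brightest probe. None of these values reached 2-fold, so the calls of Brca1 rested on 1 probe.

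The second comparison asked how WT and KO cultures differed at the same density. Each genotype difference is the log2 ratio of KO to WT within the same dye, averaged over both dyes, after scaling between arrays. At low density 41 of 43 genes were lower in KO, with a median of -1.20 (0.026 over the 15256 genes tested). By the 2-fold rule 31 genes were lower in KO (8.41% of all genes tested). A single gene, Rrm2, was higher (7.28% of all genes). At high density the median was -0.49 (0.024 over 15620 genes), 6 genes were called lower (7.8% of all genes tested), and again only Rrm2 was called higher (6.67% of all genes). The members called lower at high density thus made up 13.95% of the 43, against 72.09% at low density. Without scaling between arrays the high-density median was -0.213, with 2 genes called lower and 2 higher, while the median of all genes was 0.266. At low density it was -0.941, with 19 lower and 1 higher, and 0.269 over all genes. The share of all genes called was then 5.24% lower and 11.7% higher at low density, and 5.44% lower and 10.8% higher at high density. These values carry the slide and scan differences between the genotypes, whose part was not tested. By arithmetic the genotype difference at high density minus that at low density equals the difference of density effects, so these are not separate results.

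Ordered by mean level, the WT low-density culture was the highest of the 4 for 41 of 43 genes, and the KO low-density culture for Pold2 and Rrm2. The KO high-density culture was the lowest for 36 genes and the WT high-density culture for 7 (Gmnn, Pold2, Rfc2, Rrm1, Rrm2, Tyms and Tk1). Without scaling between arrays these counts were 31 and 12, with Mcm3, Mcm7, Pole, Pcna and Rfc1 added to the 7, and the highest culture was as before for every gene.

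**Figure D4:**
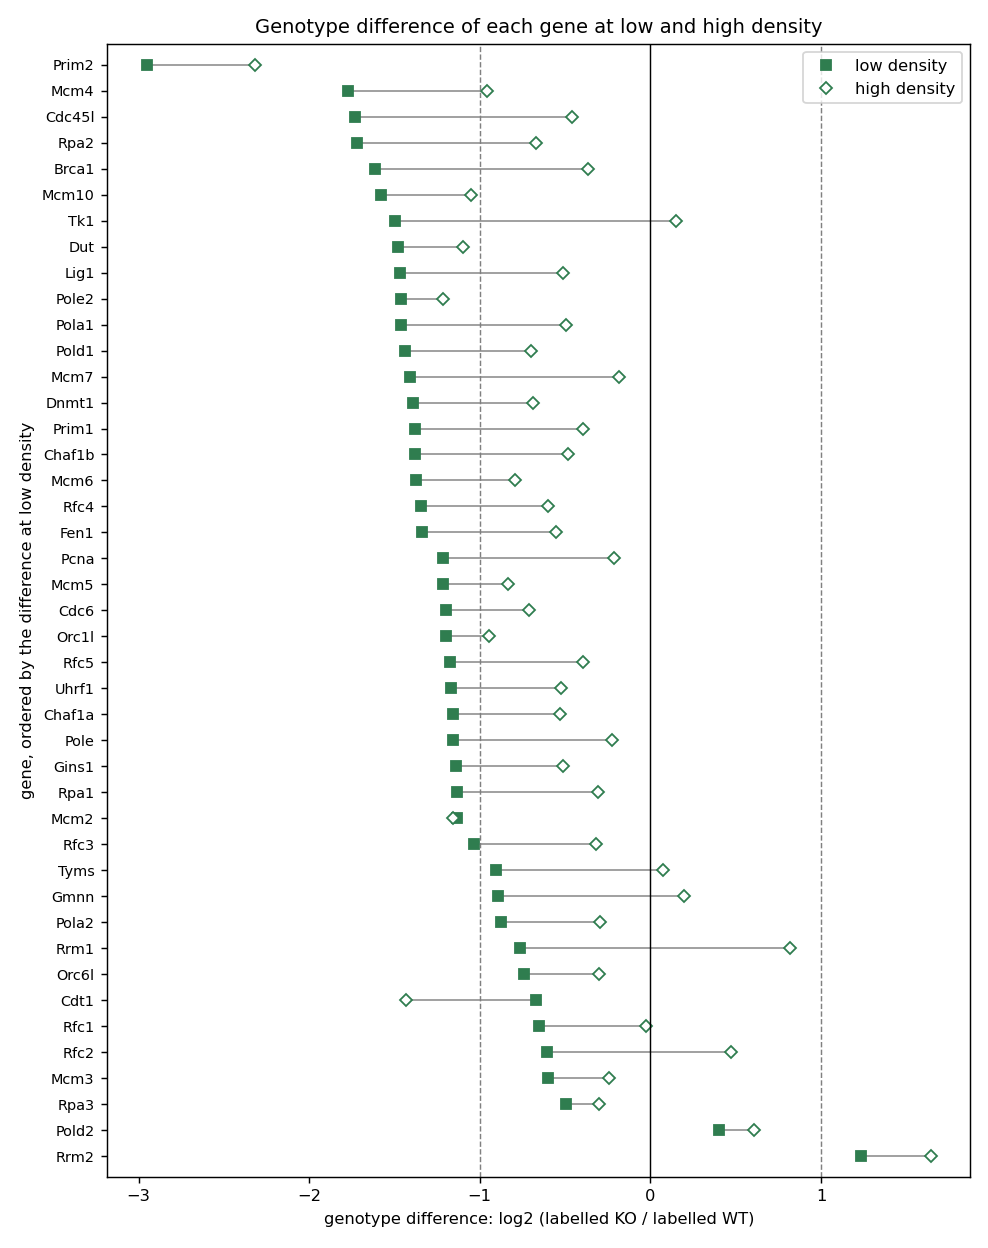
Log2 ratio of KO to WT (x axis) at low density (squares) and high density (diamonds) for each of the 43 genes, ordered by the low-density value, with dashed lines at 2-fold. The squares lie left of -1 for 31 genes and the diamonds for 6, while Rrm2 lies right of 1 at both densities.

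Prim2, the regulatory subunit of primase, had the largest genotype difference. It was at 10.99 and 11.26 in WT at low density and 9.69 and 9.99 at high density, and in KO at 8.25 and 8.09 at low density and 7.43 and 7.62 at high density. Its KO values were below all WT values, by 7.74-fold at low density and 4.97-fold at high density (log2 differences of -2.95 and -2.32). The crowding effect on Prim2 was nevertheless -1.28 in WT and -0.65 in KO. Its catalytic partner Prim1 was 2.60-fold lower in KO at low density and 1.32-fold lower at high density. Mcm2, Mcm10, Pole2, Dut and Cdt1 were the other genes called lower at high density, with differences of -1.15, -1.05, -1.22, -1.10 and -1.43. Each was below 0 in both dyes. At its second probe Dut had a difference of -0.75, so its call rested on 1 probe. For Rrm2 the differences were 1.24 at low density and 1.65 at high density. Rrm1 changed sign, from -0.76 at low density to 0.82 at high density, and was called at neither. Pold2 was above 0 at both densities (0.40 and 0.61) and was not called.

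The only test the design allowed asked for a density effect common to both genotypes, with the WT and KO means as 2 replicates. In limma, 0 of 43 replication genes had an adjusted p under 0.05, as did 0% of all 14172 genes in the lower and 0% in the higher direction. The smallest adjusted p among the members was 0.0638, for Mcm2 (mean effect -1.39, SE 0.17) and Rrm2 (-1.68, SE 0.20). Before adjustment 35 of the 43 genes had p under 0.05, all lower at high density. Of all 14172 genes, 1710 were lower and 2415 higher at that p. Genes with unlike effects in the genotypes were far from the threshold, with adjusted p of 0.19 for Tk1 and 0.193 for Rrm1 in limma. With both arrays of each pair entered and the pair as a random block, limma called 33 of 43 genes lower (10.1% of all genes) and 3511 genes in all. That version enters dye-swap arrays singly although each pair was counted as 1 replicate, so its larger count was not taken as evidence. The methods' t-test over the 2 genotype means gave 1 of 43 members below an unadjusted p of 0.05, lower at high density, against 4.89% of all genes lower and 6.05% higher, and none after Benjamini-Hochberg adjustment.

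Genes of neighbouring pathways were taken from lists kept apart from the 43. Over all genes tested, 6.09% were called lower in WT, 3.87% lower in KO, and 4.55% higher in the KO minus WT difference. Of 24 other replisome and origin genes, 9 were called lower in WT (median -0.88), led by Chtf18 (-1.82), Topbp1 (-1.56), Dbf4 (-1.51) and Recql4 (-1.46), and none was called in KO (median -0.16). The KO minus WT difference was called higher for 6 of these 24 (median 0.58), among them Mcm8 (1.27) and Pold3 (1.26). Chtf18 belongs to an alternative clamp loader and Dbf4 activates the Cdc7 kinase. Fork protection and checkpoint genes came closest to the replication genes in WT (14 of 22 called lower, median -1.27). Rad54l (-2.01), Exo1 (-1.99), Rad51ap1 (-1.81) and Fancd2 (-1.72), which act in homologous recombination and crosslink repair, had the largest decreases. In KO only Exo1 was called (-1.15) and the median was -0.48. The difference was called higher for 7 of 21 of these genes (median 0.75), among them Fancd2 (1.66) and Rad54l (1.54). These counts stand beside 9 of 43 for the replication genes.

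Of 24 E2F, pocket protein and G1/S genes, 8 were called lower in WT (median -0.66), among them the E2F repressor E2f7 (-2.12), the cyclin gene Ccne2 (-1.93), Fbxo5 (-1.89), an inhibitor of the anaphase-promoting complex, and Mybl2 (-1.83). In KO 2 were called (median -0.38), namely Mybl2 (-1.33) and Ccne1 (-1.03). The KO minus WT difference was called higher for 5 of these genes, among them the S-phase cyclin Ccna2 (1.57). Of 32 other nucleotide synthesis genes 8 were lower in WT (median -0.64) and 5 in KO (median -0.59), with a median difference of 0.053. The difference was called higher for Mthfd2 (1.25), a mitochondrial folate enzyme, and Dck (1.01), the deoxycytidine kinase. The largest WT decreases were those of Ctps (-1.69), Dck (-1.60), Umps (-1.51) and Samhd1 (-1.49), the last of which degrades deoxynucleotides, and the largest KO decrease was that of Nme1 (-1.33). Other chromatin assembly genes were called lower in 4 of 14 cases in WT (median -0.39) and in 2 of 14 in KO (median -0.06). The shares over all genes tested were 6.09% lower in WT, 3.87% lower in KO, and 4.55% higher in the difference. No gene of these 5 lists was called higher at high density in either genotype (9.41% of all genes in WT and 7.15% in KO). Differences between lists were not tested.

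**Figure D5:**
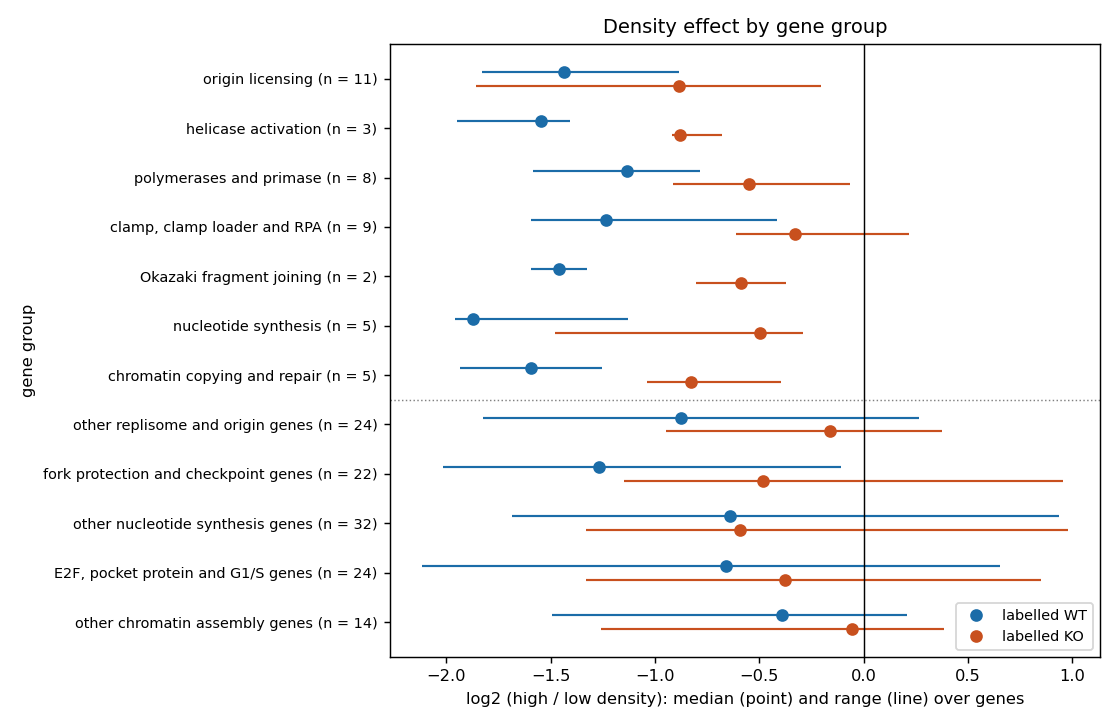
Median (points) and range (lines) of the log2 density effect in WT and KO (x axis) for the 7 roles of the replication genes, above the dotted line, and for the 5 other lists, below it. The number of genes with a WT value is given for each group, and 21 of 22 fork protection genes had a KO value. The KO median lies right of the WT median in every role, and the 2 are close for other nucleotide synthesis genes.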

How the data were processed

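Each of the 4 scanner files holds 1 array, which the authors extracted with Agilent Feature Extraction (10.5.1.1 per the submitters' processing notes). Deposited columns used here are mean spot intensity and median background intensity for both dyes, processed signal intensity, a log10 ratio of Cy5 to Cy3, and quality flags. The deposited series matrix holds the same log10 ratio, rounded, with high density as the numerator (gaps of at most 0.00499). The log-ratio p-value column of the deposited files was not used. Gene names and positions (mm8) are those of the array design.

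Intensity was corrected with normexp (offset 50) and normalised by loess in limma 3.58.1 (R 4.3.3, with the packages statmod 1.5.0 and data.table, version 1.17.8), and single channels were scaled between arrays by Aquantile. Control and outlier-flagged features were left out (107 to 224 features flagged per array), which removed 1 of 59 member probes. Each ratio was signed so that high density is the numerator, and the arrays of a pair were averaged. A gene entered a density contrast if its probe was flagged well above background at either density on both arrays of the pair, and a genotype contrast if it was so in either genotype with both dyes. Over all genes, the SD of single values about the mean of their pair was 0.102 (density effect in WT), 0.142 (in KO) and 0.125 (difference) on the log2 scale. The median gap between the paired values of a member was 0.157, 0.216 and 0.132 in these contrasts. The number of arrays limits the precision. For 9 members, 2 probes were well above background in every channel, and these had the same sign in every contrast, with the same call for 9 (density effect in WT), 8 (in KO), 8 (difference), 7 (low density) and 8 (high density). Their values were at most 0.334 apart for density effects and 0.57 for genotype differences. Agreement was poorer among the 11 members with 2 or more probes that entered the density contrasts. There the WT effects were 1.218 (Tyms), 0.952 (Pole) and 0.857 (Brca1) apart, and under 0.25 apart for 7 members. The second probes of Mcm4, Pola2 and Rrm1 were dim and not tested, and further probes of Pole, Brca1 and Tyms were dim at high density.

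Values on each array are given for the members of each role with the largest and smallest density effects, for those with unlike direction between genotypes, and for those called in the difference. Members called in the genotype contrasts are mostly given by means, counts and the plot, although the rule for named genes asked for their values. Up to 4 called genes of each other list are named for each contrast described. Members and lists were chosen with earlier results of these data known. Alternatives covered background, normalisation, filters, probe choice, threshold, test and each array left out. Promoters (RefSeq, GRCm38.p6) were searched with Python 3.11.15 and pandas 2.3.3. No probe was assigned to an exon.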

Additional observations from a re-analysis of the deposited data

How the results depend on the processing

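No median and no called gene reversed under any alternative, and 442 of 2838 single-gene values moved beyond the technical spread. Among genes not called, 19 values changed sign, from starting sizes of at most 0.251. In KO these were Rfc2 with median centring (-0.253) and without KO array 2 (-0.028), Pola1 (0.019) and Rpa3 (0.038) without KO array 2, and Rfc1 (0.163) without KO array 1. Median centring in place of loess moved the median of all genes by -0.109 (WT) and -0.136 (KO). With it the member medians were -1.62 (WT) and -0.91 (KO), 16 members were called in KO (6.93% of all genes lower) and 40 in WT (8.54%), and all 43 lay below 0 in KO. Over all genes, the calls were then 1128 higher and 1270 lower in WT (1400 and 906 with loess), and 799 and 1069 in KO (1104 and 597). Relative to the median of all genes the members were still lower in both genotypes. With a 1.4-fold threshold, 28 members were called in KO (all lower, against 15.2% of all genes), 32 in the difference (31 higher, against 15.5%) and 24 in the genotype contrast at high density (21 lower, against 20.3%). The software's processed signals and the series matrix each gave medians of -1.43 (WT) and -0.678 (KO), with 11 members called in KO (7.92% and 7.9% of all genes lower). The WT median was -1.36 with the mean over probes, -1.42 without background correction and -1.42 with an offset of 16. Without scaling between arrays, the genotype medians were -0.941 at low density (20 called) and -0.213 at high density (4 called). For the common density effect, 33 members were called lower with the pair as a random block (10.1% of all genes), which enters technical repeats singly. The count called lower was 1 with median centring (0.261%) and 2 without background correction (0.656%). It was 1 by the methods' t-test with 2-fold and unadjusted p (0.868%).

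Leaving out each array in turn gave 4 to 10 members called in KO (4 without KO array 1, against 4.41% of all genes, and 10 without KO array 2, against 3.42%) and 36 to 38 in WT. The medians ranged from -1.41 to -1.38 (WT), -0.628 to -0.577 (KO), 0.626 to 0.755 (difference), -1.27 to -1.21 (low density) and -0.485 to -0.39 (high density). Of the 9 genes called for the difference, Tk1, Rrm1, Cdc45l and Mcm7 stayed at 2-fold or more under all 11 alternatives at that threshold. Pcna reached 0.693 and Rfc2 0.832 at the lowest. Of 37 genes called in WT 34 stayed there, of 7 in KO 4, of 32 at low density 20 and of 7 at high density 3. No paired analysis was possible because each genotype has 1 replicate.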
